A study of Gloeophyllum trabeum and Trametes versicolor with 18 samples.

Results

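A set of 213 transcripts of *Trametes versicolor*, out of 15606 in the tables, was highest on high-melanin fungal necromass, intermediate on glucose and lowest on low-melanin fungal necromass. *T. versicolor* is a white-rot fungus, able to break down lignin together with the polysaccharides of wood. Fungal necromass is dead fungal biomass. Its cell walls hold chitin, glucans and proteins, and in melanised fungi also melanin, a dark polymer of phenolic units that resists enzymes. White-rot fungi are known for secreted oxidative enzymes that act on phenolic polymers, for hydrolases that act on polysaccharides, and for many small secreted proteins. Which of these the 213 transcripts encode is not given in the sources used here, and no transcript is given a function below.

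The study grew *T. versicolor* strain A1-ATF and a brown-rot fungus in liquid culture in a mineral medium (Highley's) and sampled it at 7 days. The carbon source was glucose at 1% (w/v), low-melanin necromass at 0.45% (w/v) or high-melanin necromass at 0.45%, so glucose was supplied at a higher concentration than either necromass, and its kind and its amount cannot be told apart. The 9 *T. versicolor* libraries, 3 per carbon source, are used here. RNA came from the fungal biomass of each culture, and the labels leave it unsaid if replicate libraries are separate cultures, so the spread between them may be partly technical. Levels are shares of the RNA of whole biomass, so fewer cells using a gene and less RNA per cell cannot be told apart.

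Members were chosen by their measured TPM in all 9 libraries, the relative level from kallisto given per unit of transcript length, with the same total in each library. After adding 1 to each group mean, a member had a high-melanin mean at least 1.5 times its glucose mean, a glucose mean at least 1.5 times its low-melanin mean, and a high-melanin value of at least 6. Its lowest high-melanin library also lay above its highest glucose library, and its lowest glucose library above its highest low-melanin library. Every contrast between carbon sources was therefore used to choose the members, and the ratios and levels below describe them with no test. The ratios given below are those of means plus 1. The members make up 1.36% of the transcripts, and all 213 passed the filter on low counts that kept 13340 transcripts.

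Libraries held 18301303 to 26514709 estimated counts. Low-melanin replicate 1 stood apart on the TPM scale. Transcripts shorter than 300 bases took 40.6% of its TPM, against 24.0% and 27.1% in the other low-melanin libraries and 19.6% to 27.8% in the glucose and high-melanin libraries. Its values for most other transcripts were low, with a median log2 deviation from the low-melanin mean of -0.21 over the 10122 transcripts that reached a mean of 5 TPM on any carbon source, and of -0.27 over the members. Mean fragment length ran from 291 to 344 bases on glucose, 249 to 274 on low-melanin and 267 to 293 on high-melanin necromass, and its part in the results was not tested. Over the same 10122 transcripts the median log2 ratio of low-melanin to glucose TPM was -0.11, and that of high-melanin to glucose 0.06. The members' medians were -1.13 and 1.15. Without low-melanin replicate 1 the rule gave 193 members, 192 of them shared with the full set.

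**Figure D1:**
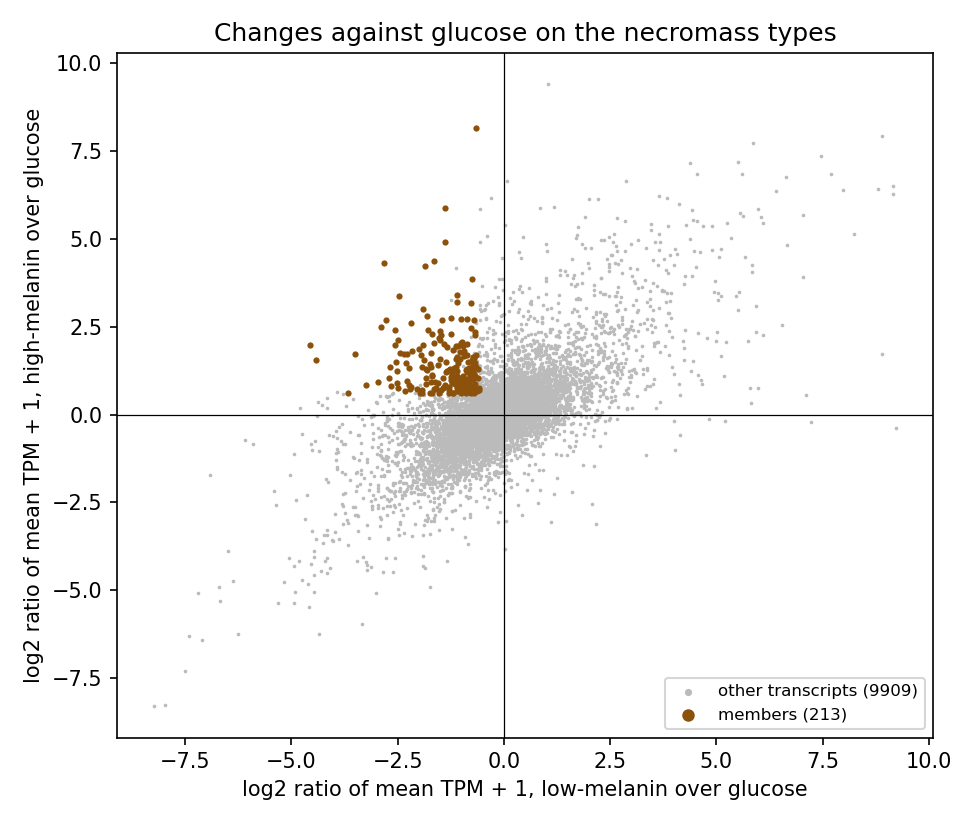
Log2 ratio of mean TPM plus 1 on low-melanin necromass over glucose (x axis) against the same ratio for high-melanin necromass (y axis), for transcripts reaching a mean of 5 TPM on any carbon source. The 213 members (brown) fill the upper left region that the rule defines, and transcript 4700 is the highest of them.

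The order high-melanin above glucose above low-melanin, with no overlap of libraries, was met by 582 transcripts, or 4.36% of the 13340 tested. The other order in which the necromass types lie on opposite sides of glucose, low-melanin above glucose above high-melanin, was met by 176, or 1.32%. With the same thresholds on ratio and level the opposite class held 42 transcripts against the 213 members. These counts move with the scaling of the libraries. On CPM, counts relative to library size, scaled by the trimmed mean of M values (TMM), the orders were met by 512 and 397 transcripts. The classes held 209 and 75 there. CPM is not divided by transcript length, so the added 1 and the level threshold then weigh transcripts differently. On TPM rescaled by median ratios, chosen after seeing the data, the orders were met by 542 and 332. The classes then held 192 and 60.

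The estimated counts of the 13340 transcripts that passed the filter were modelled with edgeR's quasi-likelihood test. On high-melanin necromass 208 of the 213 members were called higher than on glucose, where 26.8% of the transcripts tested were. On low-melanin necromass 206 were called lower than on glucose, where 32.4% of those tested were. Between the necromass types all 213 were called higher on the high-melanin one, where 26.3% of those tested were. Both calls against glucose were made for 202 members and for 3.18% of the transcripts tested. The rule used these contrasts and the comparisons share their glucose libraries, so nothing is read from the counts. The median log2 fold change of the members was 1.25 for high-melanin necromass against glucose, -1.27 for low-melanin necromass against glucose, and 2.64 between the necromass types, with medians of -0.01, -0.04 and -0.01 over all transcripts tested.

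Summed over the members, transcripts took 0.469% ± 0.0877 of all TPM on low-melanin necromass, 1.37% ± 0.173 on glucose and 6.02% ± 0.344 on high-melanin necromass (SD, n = 3). The single libraries stood at 0.368%, 0.515% and 0.525% on low-melanin necromass, at 1.34%, 1.21% and 1.55% on glucose, and at 5.83%, 6.41% and 5.81% on high-melanin necromass. The groups did not overlap, as the rule requires of each member. The spread within a group was also uneven. The median coefficient of variation of the members was 21.5% on low-melanin necromass, 22.5% on glucose and 9.29% on high-melanin necromass, beside 14.9%, 14.2% and 10.1% over the 10122 transcripts with a mean of at least 5 TPM. It exceeded 50% for 16 members on glucose and for 9 on low-melanin necromass, and for 0 on high-melanin necromass, where its highest value was 36.0%.

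Levels spanned a wide range. On high-melanin necromass the member means ran from 5.02 to 14805 TPM, with a median of 38.1. The median was 16.0 TPM on glucose and 6.08 on low-melanin necromass. A small number of transcripts carried most of the level: the 61 members with at least 100 TPM on high-melanin necromass held 91.7% of the members' TPM there, and the 11 with at least 1000 held 64.4%. The members were rarely silent on low-melanin necromass. In all 3 low-melanin libraries 0 members were listed at 0, and 20 had a mean under 1 TPM there. The lowest estimated count of any member in a low-melanin library was 2, and 10 members had fewer than 10 counts in at least 1 of those libraries, so their low-melanin levels are the least precise.

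The step up from glucose to high-melanin necromass and the step down from glucose to low-melanin necromass were of like size over the set. The ratio of high-melanin to glucose had a median of 2.22 and quartiles of 1.72 and 3.31, and the ratio of glucose to low-melanin a median of 2.18 and quartiles of 1.78 and 3.27. Of the 213 members, 104 had the larger step above glucose and 109 below it. Both ratios were under 2 for 41 members and at least 2 for 83. The ratio between the necromass types had a median of 5.56 and was at least 10 for 56 members.

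**Figure D2:**
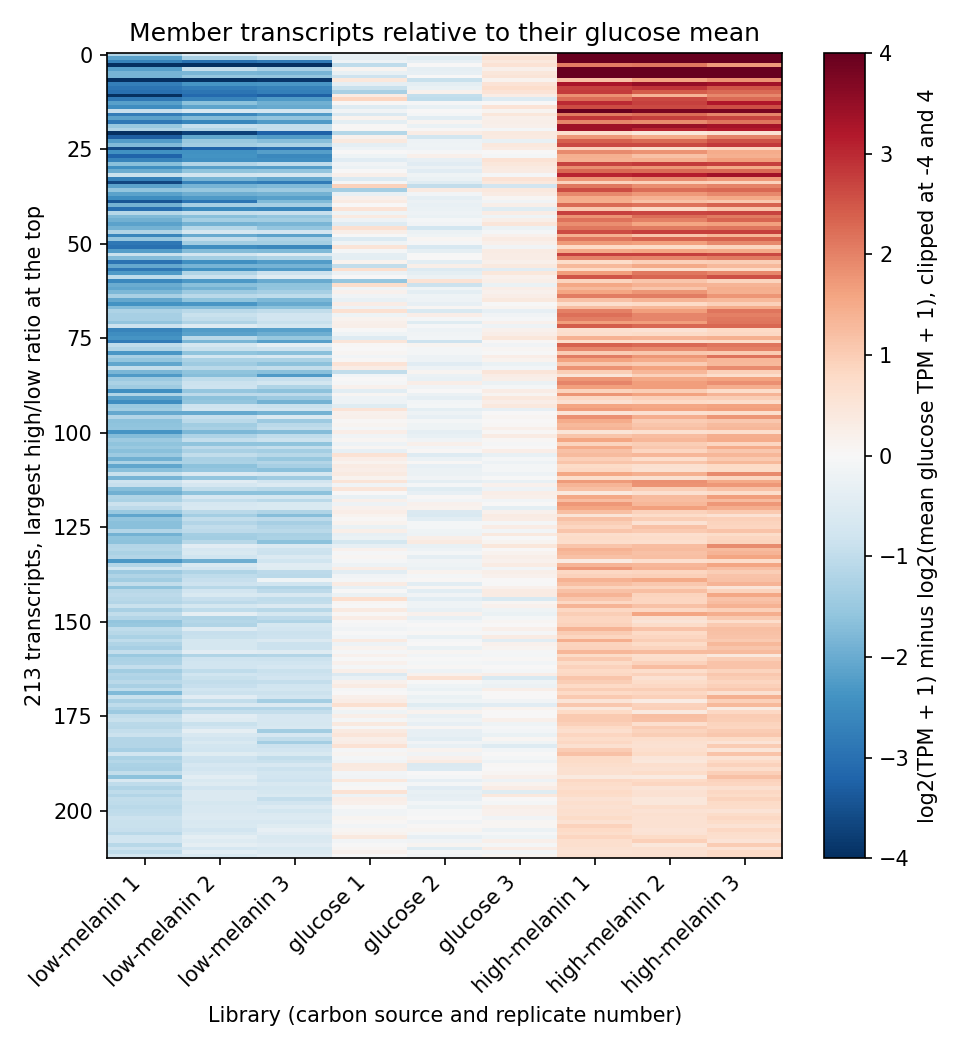
Each row is 1 of the 213 members and each column 1 library. Colour gives log2(TPM + 1) minus the log2 of the member's mean glucose TPM plus 1, clipped at -4 and 4, with rows ordered by the ratio of high-melanin to low-melanin TPM. All low-melanin columns are blue, darkest in replicate 1, all high-melanin columns are red, and the largest steps in either direction lie near the top.

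Members could be separated by the direction of their larger step. A ratio of at least 4 over glucose on high-melanin necromass, with less than 4 between glucose and low-melanin necromass, was found for 30 members. The reverse was found for 26. In 7 members both ratios were at least 4, namely transcripts 3816, 3819, 3820, 6422, 8610, 12051 and 15393, whose ratios to glucose ran from 4.31 to 19.7 on high-melanin necromass and whose ratios of glucose to low-melanin ran from 4.55 to 7.39. Both ratios were under 4 in the other 150 members, which held 28.7% of the members' TPM on high-melanin necromass.

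The most abundant member was transcript 4700 (jgi.p|Traver1|4700 in the tables, and likewise for every number used here), with a coding length of 465 bases. Its TPM was 21.8, 34.7 and 39.4 on low-melanin necromass, 41.3, 46.2 and 65.6 on glucose, and 13190, 18465 and 12759 on high-melanin necromass. The low-melanin and glucose libraries lie next to each other and all 3 high-melanin libraries far above them. The mean ratio was 285 over glucose, a log2 fold change of 8.29 ± 0.30 (SE) in edgeR, while that of low-melanin necromass against glucose was -0.38 ± 0.23 (SE), smaller than 2 standard errors and not called. Its place in the set therefore rests on a narrow gap below glucose. Without it the members' share of all TPM on high-melanin necromass was 4.54% ± 0.0306 (SD, n = 3).

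Transcript 4702, of 456 bases, was next. It stood at 16.5, 30.2 and 37.8 TPM on low-melanin necromass, 58.7, 54.4 and 114 on glucose, and 4233, 4965 and 4360 on high-melanin necromass. Glucose replicate 3 was well above the other glucose libraries, and all of them were above the low-melanin ones. Log2 fold changes against glucose were 6.01 ± 0.36 on high-melanin and -1.13 ± 0.31 (SE) on low-melanin necromass.

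Transcript 3820, of 387 bases, had large steps both ways. It stood at 27.2, 21.9 and 24.3 TPM on low-melanin necromass, 156, 142 and 242 on glucose, and 3583, 3705 and 3396 on high-melanin necromass. The log2 fold change against glucose was 4.45 ± 0.25 (SE) on high-melanin and -2.50 ± 0.24 (SE) on low-melanin necromass. Transcript 3816, of 645 bases, was similar in shape, with 33.1, 42.8 and 44.4 TPM on low-melanin necromass, 177, 173 and 329 on glucose, and 2170, 2522 and 2330 on high-melanin necromass. Both carried estimated counts that were not whole in some library, which marks reads divided between similar transcripts, so their levels are uncertain.

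Transcript 6421, of 594 bases, had the largest step below glucose by the ratio of means plus 1. It stood at 14.5, 26.0 and 16.9 TPM on low-melanin necromass, 234, 476 and 708 on glucose, and 1974, 2023 and 1558 on high-melanin necromass. Its glucose libraries were widely spread, but the lowest still lay well above every low-melanin library. The ratio of glucose to low-melanin was 23.5, with a log2 fold change of -4.39 ± 0.43 (SE) on low-melanin necromass and 2.02 ± 0.38 (SE) on high-melanin necromass. Adding 1 to the means shrinks the ratios of members near 0, and by the counts transcript 12305 had a larger step, at -5.17 ± 0.29 (SE). It stood at 0.0363, 0.0383 and 0.110 TPM on low-melanin necromass, 2.00, 2.65 and 2.78 on glucose, and 7.20, 7.65 and 8.79 on high-melanin necromass, with only 2, 2 and 6 estimated counts in the low-melanin libraries.

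Other abundant members were already high on glucose. Transcript 9665, of 738 bases, stood at 756, 864 and 825 TPM on low-melanin necromass, 1594, 1680 and 2000 on glucose, and 3347, 3378 and 3896 on high-melanin necromass, in even steps with little spread, and it also shares reads with similar transcripts. Transcript 4054, of only 168 bases, stood at 249, 473 and 446, 1024, 1406 and 1713, and 2567, 2737 and 2310 TPM in the same order. At that length the TPM depends strongly on the fragment lengths of a library, and its log2 fold changes from counts were -1.74 ± 0.20 and 0.68 ± 0.19 (SE). Transcript 11189, of 831 bases, stood at 118, 234 and 182 TPM on low-melanin necromass, 1159, 468 and 864 on glucose, and 1361, 1344 and 1416 on high-melanin necromass. Its glucose libraries were widely spread. The step up was 0.73 ± 0.26 (SE) on the log2 scale, and its call was lost in 8 of the 18 other settings tried for the count model, with values of 0.57 to 0.79.

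Transcripts 2093 and 13338 complete the 10 most abundant. Transcript 2093, of 594 bases, stood at 190, 237 and 292 TPM on low-melanin necromass, 397, 414 and 347 on glucose, and 1992, 1842 and 1699 on high-melanin necromass. Most of its change lay above glucose, with a ratio of 4.77 there and 1.61 below it. Transcript 13338, of 702 bases, stood at 51.5, 92.8 and 82.6, 234, 284 and 505, and 1166, 1265 and 1125 TPM in the same order, with a ratio of 4.46 below glucose and 3.47 above it.

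**Figure D3:**
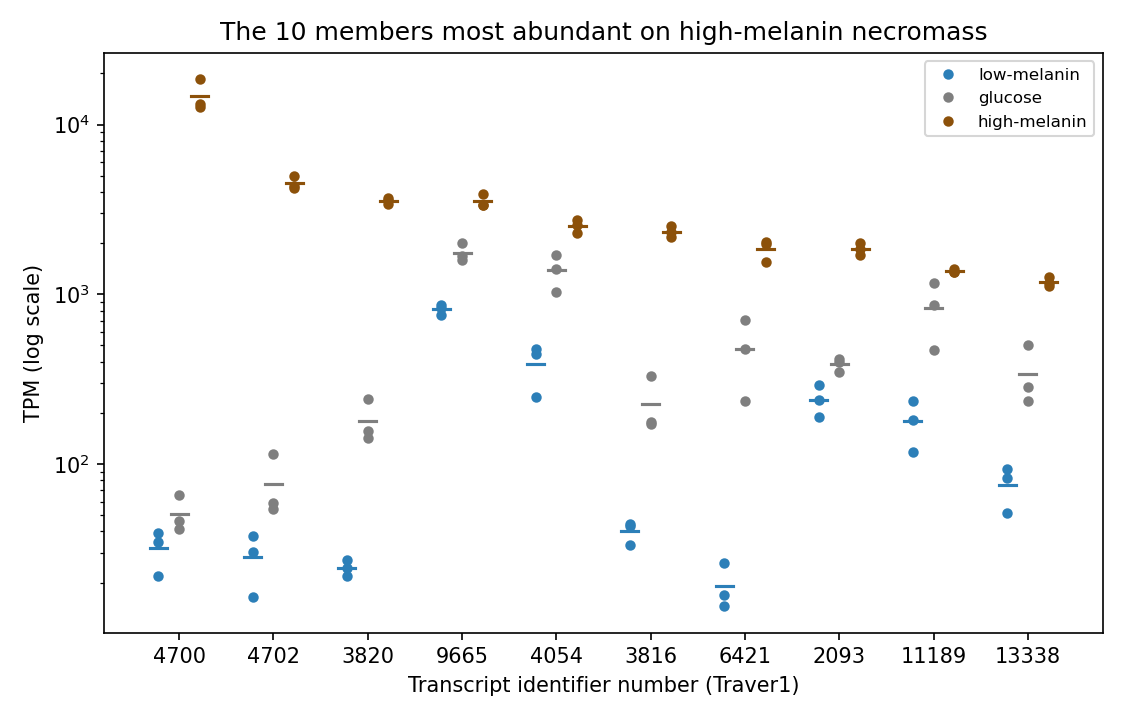
TPM on a log axis for the 10 members with the highest mean on high-melanin necromass, with a point for each library and a bar at each group mean. Transcripts 4700 and 4702 differ mainly above glucose, 6421 and 11189 mainly below it, and 9665 has nearly even steps.

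Among members with at least 50 TPM on high-melanin necromass, the lowest on glucose were transcripts 10404, 1493 and 305. Transcript 10404, of 1062 bases, stood at 1.52, 1.59 and 1.96 TPM on low-melanin necromass, 4.94, 5.01 and 4.43 on glucose, and 59.7, 46.6 and 51.4 on high-melanin necromass. Transcript 1493, of 1758 bases, stood at 3.49, 4.41 and 4.12, 6.60, 7.62 and 8.14, and 134, 116 and 117 TPM in that order, and its log2 fold change against glucose on high-melanin necromass was 3.97 ± 0.12 (SE). Transcript 305, of 1950 bases, stood at 2.20, 3.14 and 3.54, 7.39, 8.73 and 13.5, and 66.4, 66.4 and 75.6 TPM. All 3 change mainly above glucose, and the glucose libraries of transcript 305 are the most spread of the 3.

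Transcript 1661, of 1095 bases, is the opposite case and lies close to the threshold. It stood at 9.29, 13.7 and 19.9 TPM on low-melanin necromass, 88.1, 241 and 252 on glucose, and 318, 267 and 298 on high-melanin necromass. Its ratio was 12.7 below glucose and 1.52 above it. The log2 fold change of the upper step was 0.56 ± 0.36 (SE), less than 2 standard errors. The other members nearest to the ratio threshold were transcripts 7897, 3664 and 15323, with ratios of glucose to low-melanin of 1.51, 1.51 and 1.52. The lower step of transcript 7897 was not called by the count model, at -0.45 ± 0.19 (SE) on the log2 scale. Just outside lay transcript 2788, with a ratio of high-melanin to glucose of 1.4996, and transcripts 6831 and 8607, with ratios of glucose to low-melanin of 1.4995 and 1.4932. Transcript 14863 had a ratio of high-melanin to glucose of 1.4927. At the level threshold, members 5178 and 6338 had high-melanin means of 5.02 and 5.09 TPM, and transcripts 1395 and 13428 just below it 4.70 and 4.50.

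Coding length was not part of the rule. All 213 members have lengths that are multiples of 3, as do 99.6% of all transcripts, so the lengths are coding lengths. They ran from 87 to 4128 bases, with a median of 1095 and quartiles of 699 and 1587, close to the median of 1110 and quartiles of 660 and 1713 of all transcripts. The 42 transcripts of the opposite class had a median of 878. Within the set the more abundant members tended to be shorter. The 53 members most abundant on high-melanin necromass had a median length of 735 bases and the 53 least abundant 1317. The 10 most abundant were all between 168 and 831 bases long. The same comparison was not made over all transcripts, so it is not given as particular to the members. In whole libraries, transcripts shorter than 300 bases took 19.6% to 40.6% of TPM, though they were 7.47% of all transcripts. Of the members, 8 were shorter than 300 bases, or 3.76%, beside 7.47% of all transcripts. Estimated counts that were not whole within 0.01, a sign of reads shared with similar transcripts, were found for 17 members, or 7.98%, beside 6.66% of the transcripts tested.

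Some of the members also lay close together in the numbering of the transcripts, which the rule did not use, though 177 had no member at the next or previous number. The identifiers run from 1 to 15606. Whether they follow the order of genes in the genome is not given in the sources used here, so closeness of number is not called closeness in the genome. Of the 213 members, 36 (16.9%) had another member at the next or previous number, while 2.60% of all transcripts had a member there. Within 3 numbers the shares were 28.2% and 6.97%, and within 5 numbers 37.1% and 11.1%. The opposite class showed the same feature, with 4 of its 42 transcripts (9.52%) next to another of the class, beside 0.532% of all transcripts. Transcripts with neighbouring numbers were also somewhat alike in the table as a whole. Across the 9 libraries, the median Pearson correlation of log2(TPM + 1) was 0.32 for pairs at consecutive numbers and 0.12 for pairs 1000 numbers apart, among transcripts reaching a mean of 5 TPM.

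Taking steps of at most 3 numbers between members, a choice made after the values were seen, 5 blocks held at least 4 members each and 33 members together. These 33 made up 59.2% of the members' TPM on high-melanin necromass. Of the 10 most abundant members, 5 lay in the blocks. The 13 members with a ratio of at least 30 between the necromass types included 10 in the blocks and 2 more in the run 6421 to 6423 described later. Summed over the 33, the share of all TPM was 0.0990% ± 0.0273 on low-melanin necromass, 0.415% ± 0.0922 on glucose and 3.56% ± 0.411 on high-melanin necromass (SD, n = 3).

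The block from 4696 to 4704 held the steepest changes above glucose. Its 5 members, 4696, 4697, 4700, 4702 and 4704, had coding lengths of 456 to 549 bases and a median ratio of 29.9 above glucose and 2.63 below it. Transcript 4696 stood at 3.83, 5.06 and 4.91 TPM on low-melanin necromass, 8.92, 16.9 and 24.1 on glucose, and 369, 412 and 309 on high-melanin necromass. Transcript 4697 stood at 3.89, 3.97 and 3.87, 13.6, 13.3 and 23.4, and 326, 351 and 309 TPM in the same order. Transcript 4704 stood at 1.72, 5.31 and 3.90, 12.2, 8.52 and 13.0, and 364, 394 and 334 TPM. These 3 members had similar levels to each other on each carbon source.

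Transcripts 4698 and 4699, of 477 and 462 bases, lie within this block and have the same large step above glucose without the step below it, so they are not members. Transcript 4698 stood at 5.02, 6.80 and 10.1 TPM on low-melanin necromass, 5.41, 7.96 and 7.20 on glucose, and 744, 895 and 704 on high-melanin necromass. Transcript 4699 stood at 2.45, 3.37 and 3.75, 4.60, 2.75 and 5.10, and 338, 388 and 366 TPM. The remaining transcripts of the block, 4701 and 4703, were longer, at 1548 and 840 bases. They did not share the large step above glucose, with ratios there of 1.51 and 1.21. Transcript 4703 did have a step below glucose, with a ratio of 3.62. Its mean TPM was 23.9 on low-melanin necromass, 89.0 on glucose and 107 on high-melanin necromass. Transcript 4701 was highest on low-melanin necromass, with means of 28.2 TPM there, 6.94 on glucose and 11.0 on high-melanin necromass. All 9 transcripts of the block had whole estimated counts in every library, so no reads of theirs were seen to be divided between similar transcripts. Summed over the 5 members, the block stood at 72.3 ± 21.9 TPM on low-melanin necromass, 171 ± 59.6 on glucose and 20380 ± 3649 on high-melanin necromass (SD, n = 3).

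The block from 3814 to 3821 held 5 members of 333 to 645 bases, 3814, 3816, 3819, 3820 and 3821, with a median ratio of 5.24 above glucose and 5.93 below it. Transcript 3821, of 558 bases, had 4.48, 8.92 and 13.4 TPM on low-melanin necromass, 289, 114 and 232 on glucose, and 483, 641 and 736 on high-melanin necromass, a ratio of 21.4 below glucose. Transcript 3819, of 333 bases, had 9.39, 11.3 and 14.8, 137, 36.2 and 51.5, and 355, 469 and 368 TPM. Transcript 3814, of 390 bases, was the flattest, with mean TPM of 19.4, 43.7 and 134 in the same order. Between them lies transcript 3817, of 471 bases, with a reverse pattern on high-melanin necromass: its mean TPM was 675 on low-melanin necromass, 1286 on glucose and 441 on high-melanin necromass. Summed over its 5 members, the block stood at 105 ± 13.3, 737 ± 206 and 7053 ± 385 TPM (SD, n = 3) on low-melanin necromass, glucose and high-melanin necromass.

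The longest block, from 8590 to 8610, held 13 members among 21 numbers, with moderate ratios of 2.90 above glucose and 3.26 below it by their medians. The most abundant were transcripts 8608 and 8610, of 948 and 924 bases. Transcript 8608 stood at 31.8, 45.6 and 50.9 TPM on low-melanin necromass, 92.6, 74.5 and 142 on glucose, and 679, 727 and 689 on high-melanin necromass, with part of its reads shared with similar transcripts. Transcript 8610 stood at 19.4, 25.7 and 27.6, 80.3, 93.4 and 168, and 695, 714 and 688 TPM. Their high-melanin means, 698 and 699 TPM, were nearly equal.

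Within this block the members reached very different levels. Transcript 8609, of 1449 bases and between these in number, had mean TPM of 2.51 on low-melanin necromass, 12.5 on glucose and 42.7 on high-melanin necromass. Transcripts 8603 and 8606, of 1674 and 1680 bases, were alike, with means of 9.49, 33.2 and 165 TPM and of 17.2, 50.2 and 244 TPM. Transcripts 8590 and 8596 differed mainly below glucose, with ratios of 5.68 and 6.34 there and of 1.86 and 1.75 above it. The lowest member, 8599, had means of 1.71, 5.40 and 11.5 TPM. Transcript 8607, which missed the threshold with a ratio of 1.49 below glucose, had means of 58.1, 87.2 and 353 TPM. Summed over its 13 members, the block stood at 189 ± 39.8, 611 ± 127 and 2556 ± 12.7 TPM (SD, n = 3).

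The block from 1577 to 1581 held 4 members, with a median ratio of 7.49 below glucose and 3.34 above it. In transcripts 1577, 1579 and 1581 the step below glucose was the larger, and in 1580 the step above it. Transcript 1579, of 1200 bases, stood at 5.09, 15.0 and 13.1 TPM on low-melanin necromass, 172, 69.1 and 168 on glucose, and 488, 352 and 519 on high-melanin necromass. Transcript 1577, of 2031 bases, was similar in shape, at 5.52, 14.2 and 12.8, 71.2, 38.1 and 81.6, and 215, 180 and 256 TPM, with glucose replicate 2 and high-melanin replicate 2 the lowest of their groups in both. Transcript 1581, of 1029 bases, was the most abundant, at 43.1, 56.7 and 63.9, 460, 462 and 663, and 1009, 854 and 974 TPM, and shares reads with similar transcripts. Transcript 1580, of 1350 bases, had mean TPM of 5.65, 11.1 and 47.3, a ratio of 1.83 below glucose and 3.98 above it.

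The block from 4054 to 4063 held 6 members of 147 to 999 bases, with medians of 1.91 above glucose and 3.10 below it. The shortest, transcript 4055, had a TPM ratio of 1.53 above glucose. In the count model its step up was 0.33 ± 0.30 (SE) on the log2 scale, the smallest of all members. Besides transcript 4054, the most abundant were transcripts 4057 and 4058. Transcript 4057, of 666 bases, stood at 50.5, 106 and 134 TPM on low-melanin necromass, 210, 187 and 340 on glucose, and 790, 1066 and 931 on high-melanin necromass. Transcript 4058, of 999 bases, stood at 13.1, 26.4 and 23.8, 164, 124 and 230, and 329, 334 and 331 TPM, a ratio of 7.85 below glucose. The high-melanin libraries of transcript 4058 were nearly identical while its glucose libraries spread widely.

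**Figure D4:**
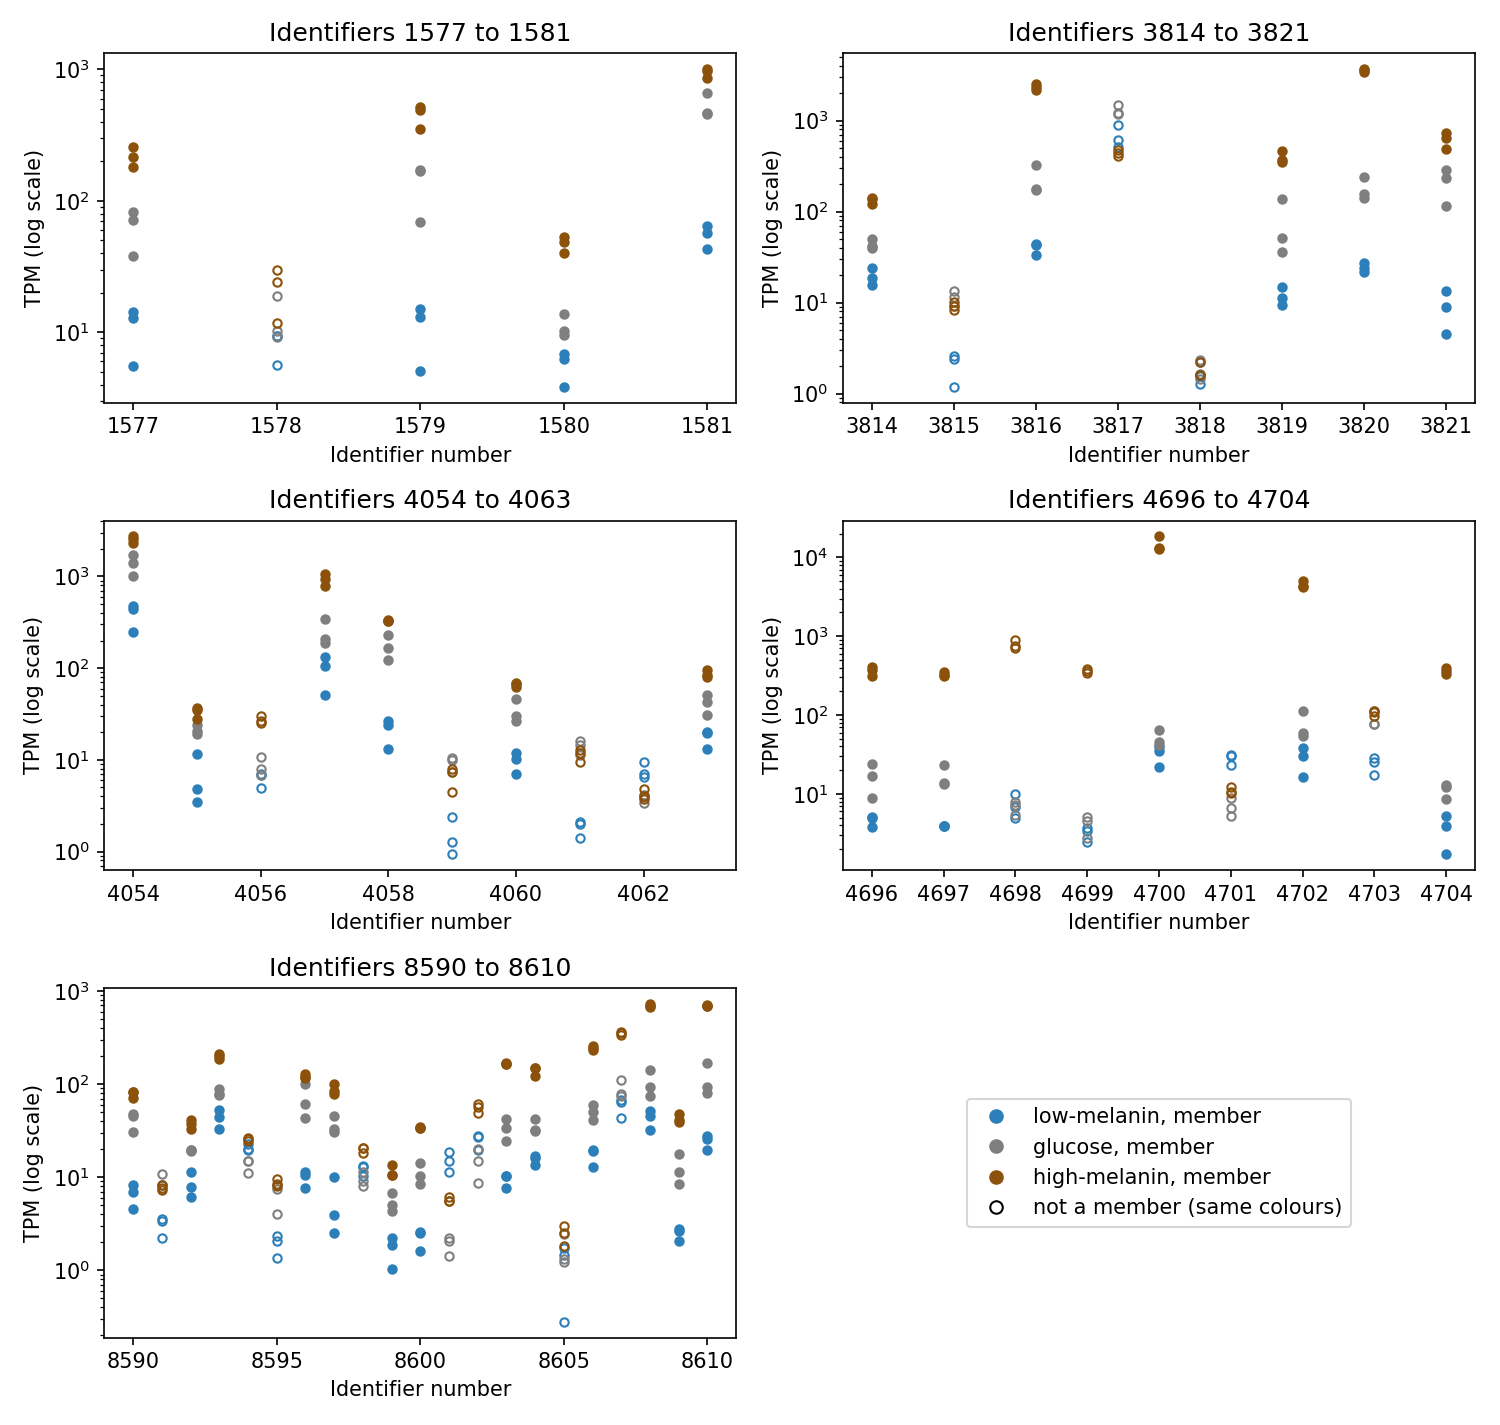
TPM on a log axis against identifier number for the 5 blocks, with a point for each library coloured by carbon source. Filled points are members and open points the 20 transcripts between them that are not members. In the block from 4696 to 4704 the high-melanin points of 7 transcripts, including the open ones at 4698 and 4699, lie far above the rest.

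The 20 transcripts inside the blocks that are not members often shared the difference between the necromass types, while fewer met either step against glucose. A transcript meeting both steps and the level threshold would be a member, so the lower counts for the steps are partly set by the rule. Of these, 14 were at least 1.5 times as high on high-melanin as on low-melanin necromass with no overlap of libraries, which 24.2% of the 10122 transcripts with a mean of at least 5 TPM and 18.8% of all transcripts were. The step above glucose was met by 9 of the 20, beside 19.8% of the 10122 and 14.1% of all transcripts, and the step below it by 7, beside 27.5% and 22.6%. Transcripts 4062, 4698, 4701, 8594, 8598, 8601 and 8602 had higher means on low-melanin necromass than on glucose. Transcript 8601, for example, had means of 15.0 TPM on low-melanin necromass and 1.89 on glucose. In transcripts 4698, 8598 and 8602 the low-melanin and glucose libraries overlapped. These transcripts were also among the 14 that shared the difference between the necromass types.

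Outside the blocks, the run 6421 to 6423 and 5 pairs had consecutive numbers. Transcript 6422, of 882 bases, stood at 10.3, 11.7 and 12.5 TPM on low-melanin necromass, 45.4, 70.8 and 138 on glucose, and 565, 615 and 487 on high-melanin necromass. In it and in transcript 6421, described above, the order of the libraries was the same within glucose and within high-melanin necromass. Transcript 6423, of 1773 bases, was far lower and flatter, with mean TPM of 6.47, 13.2 and 26.3. The pairs were 9493 and 9494, 11189 and 11190, 12939 and 12940, 13234 and 13235, and 15461 and 15462. Transcripts 13234 and 13235, of 1317 and 1260 bases, differed in level, with high-melanin means of 51.2 and 843 TPM, but had ratios below glucose of 1.69 and 1.64, and glucose replicate 1 was the highest glucose library in both.

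By their median correlation, the members varied together within carbon sources about as much as other transcripts. The median pairwise correlation of the deviations of log2(TPM + 1) from the group means, over the 9 libraries, was 0.42 for the members and 0.38 for the 10122 transcripts with a mean of at least 5 TPM. The transcripts of a library share its scale, which was low in low-melanin replicate 1, and the part of this in the correlations was not tested. Glucose replicate 2 was below the group mean for most members, with only 49 of the 213 above it, and glucose replicate 3 above it for 140. The members' median log2 deviations in these libraries were -0.16 and 0.11, beside 0.01 and -0.01 over the 10122 transcripts. The members were therefore shifted there while the 10122 transcripts, by their median, were not. Inside the blocks the median correlation was 0.86 for the 4 members from 1577, 0.78 for the 6 from 4054, 0.71 for the 5 from 4696, 0.64 for the 13 from 8590 and 0.30 for the 5 from 3814, each over the same 9 libraries.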

How the data were processed

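Transcript levels were measured by RNA sequencing. Per the labels' protocols, TRIzol and a PureLink kit gave the RNA, and a NEBNext Ultra II kit the libraries. The tools named are kallisto 0.51.1 and DESeq2 1.48.2, per the submitters' processing notes. Neither the transcript set nor its genome build is named, so both are not given in the sources used here. The authors deposited, for each library, estimated counts (expected counts) per transcript with lengths and effective lengths. The authors also deposited TPM values, and these were used as deposited for the rule and all levels. No annotation of *T. versicolor* transcripts was at hand, so the part of the naming rule that needs gene functions was not applied.

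Estimated counts were rounded, filtered with filterByExpr, scaled with TMM and fitted over 9 libraries with carbon source as the only term in edgeR 4.0.16 (glmQLFit and glmQLFTest, robust) under R 4.3.3, with Benjamini-Hochberg adjustment over 13340 transcripts and a threshold of 0.05. Alternatives used DESeq2 1.42.0 and limma 3.58.1. Standard errors are the fold change (log2) over the root of its F statistic. The script was tested on simulated data with 200 transcripts changed. For high-melanin necromass against glucose (13340 transcripts), calls were made for 31.3% of transcripts at a fold of 1.5, 86.6% at 2 and 100% at 4.

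Members named were those most abundant on high-melanin necromass, with the largest ratios, nearest the threshold, in runs of 3 consecutive numbers, or highest or lowest on glucose. The members, the naming rule and the comparisons were chosen with earlier results of these data known. Block members beyond this rule, transcripts between them, the pairs outside the blocks and transcripts 12051, 12305 and 15393 were named after their values were seen. Replicate numbers were not used to pair the libraries in the reported fit. Same-numbered libraries had correlations of deviations from -0.15 to 0.034, beside -0.0617 to 0.136 for differently numbered ones. These values cannot show if same-numbered cultures were set up or processed together.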

Additional observations from a re-analysis of the deposited data

How the results depend on the processing

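The number of members was 213 as reported, 209 on TMM CPM, 192 on TPM rescaled by median ratios (an alternative chosen after seeing the data) and 250 with overlap of libraries allowed. It was 129 with 5 in place of 1 added to each mean and 83 with a ratio of 2, both of which remove members by construction. Leaving out a library in turn gave 193 to 253 members. The opposite class, recomputed under the same settings after seeing the data, held 42 transcripts as reported, 75 on TMM CPM, 13 with a ratio of 2, and 40 to 58 with a library left out. The cause of its rise on TMM CPM was not tested. Members in common with the reported set numbered 181 on TMM CPM and 190 on rescaled TPM, and 31 and 32 of the 33 block members were kept there. Members with a member nearby in number were 36 at the next number, 60 within 3 and 79 within 5 numbers, which widen the window by construction, and 30 and 34 at the next number on TMM CPM and on rescaled TPM.

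Over 18 alternatives to the count model, 199 to 209 members were called higher on high-melanin necromass than on glucose, 199 to 213 lower on low-melanin necromass than on glucose, and 213 higher on the high-melanin type when the necromass types were compared, with 0 members in the opposite direction. With the replicate number as a block these counts were 206, 204 and 213. The members were chosen on these contrasts, and shares over all transcripts tested were taken for the reported fit only. Nothing is therefore read from the counts under the alternatives. Of the log2 fold changes against glucose of the 31 members named by the rule, 1099 of 1116 alternative values stayed on the same side of the threshold and 0 changed sign. The call of transcript 11189 on high-melanin necromass was lost in 8 settings and that of transcript 2093 on low-melanin necromass in 2. On low-melanin necromass, transcript 4700 was called lower in 3 settings, with values of -0.65 to -0.55, and transcript 7897 in 4, with values of -0.73 to -0.50, though neither was called in the reported fit. Low counts limit the low-melanin levels of the 10 members with fewer than 10 counts in a library.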
